A study of Mus musculus with 13 samples.

Results

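The genes examined here are 10 genes of myoblast fusion and adhesion, taken by name and with earlier results of these data known, among the 16382 genes in the data. They are the fusogens Mymk and Mymx, the cell to cell adhesion genes Cdh15, Cdh2, Ncam1, Vcam1 and Jam3, the integrin subunits Itga7 and Itgb1, and the intracellular regulator Dock1. They were measured by RNA-seq in myotubes of C2C12, a mouse myoblast line whose cells fuse into multinucleated fibres in low serum medium. The cells were of wild-type genotype, and on day 8 of differentiation their medium was exchanged for one with 10 µM palmitoylethanolamide (PEA), a fatty acid amide, or with its vehicle DMSO (CON). RNA was extracted 24 h later from 6 CON and 6 PEA libraries. They came from duplicate wells in 3 repeats of the experiment on 1 cell line, so each treatment has 3 experimental replicates. The labels do not say which libraries share a repeat, and all tests below treat the 6 wells as independent, which can make p-values too small.

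Muscle fibres form when single myoblasts leave the cell cycle, align, adhere and merge their membranes. Cadherins and immunoglobulin type adhesion molecules hold the cells together, integrins tie them to the matrix, and a Rac pathway that Dock1 serves remodels the actin beneath the contact. Myomaker, encoded by Mymk, is needed for the outer membrane leaflets to mix, and myomixer, the micropeptide encoded by Mymx, is needed for the fusion pore to open. Treatment began after differentiation, and these data measure transcripts and not fusion itself.

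All 10 genes were expressed and passed the filter on low counts. In PEA-treated myotubes Mymx fell by 27.7% and Cdh15 fell by 15.9%. Of the other members, 4 had a log2 fold change above 0, but none was called higher by the test given below. The samples are bulk RNA, in which fewer cells of a type and less RNA per cell cannot be told apart. Each gene was tested with edgeR, its p adjusted by Benjamini-Hochberg over 13142 genes, and was called at an adjusted p below 0.05. The 2 members called lower are 20% of the 10, beside 4.74% of all genes tested called lower and 6.31% called higher. Counting both directions, a list of 10 at these shares would hold about 1 called gene, so the count of 2 is close to the background. Without CON replicate 5 or PEA replicate 4, 5 or 6 the count of called members was 0. DESeq2 called the same 2 members lower, beside 7.03% of all genes. No member had groups that did not overlap, as 1.81% of all genes had in the lower direction. The median log2 fold change was -0.01 for the members and 0.01 for all genes. The median size of the change, whichever its direction, was 0.04 for the members and 0.11 for all genes on the log2 scale. The comparison was not matched for expression level, so it does not show that members respond less than other genes.

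**Figure D1:**
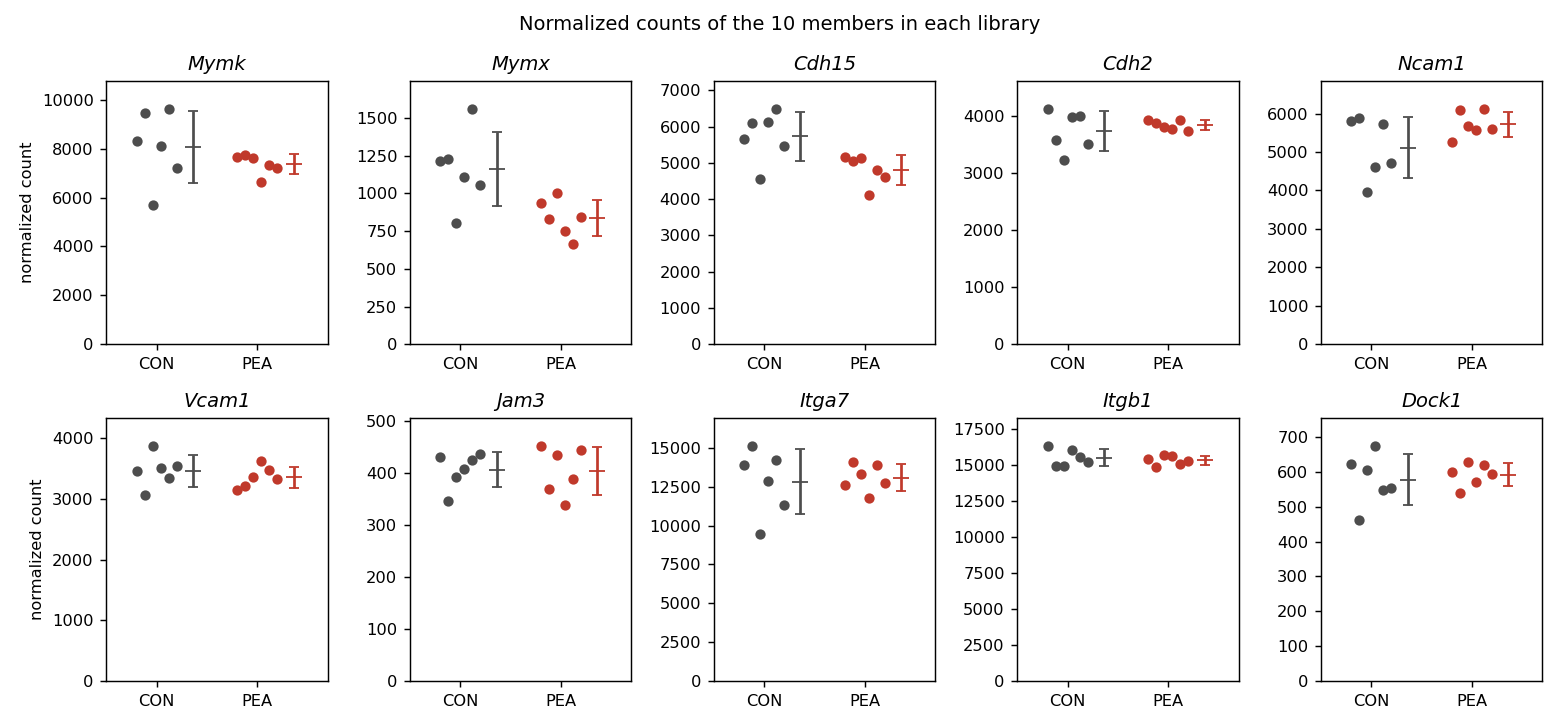
Normalized counts (vertical axis, from 0) of each of the 10 members in the 6 CON libraries (grey) and 6 PEA libraries (red). Each point is 1 library and the bar beside it is the mean ± SD, with Mymx and Cdh15 lower in PEA and all other panels overlapping broadly.

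Mymx (ENSMUSG00000079471, chromosome 17, bases 45911239 to 45913028, minus strand, GRCm39) showed the largest change among the members. Values are given as normalized counts, the estimated reads of a gene divided by a size factor of the library. In CON the lowest library had 804, the median was 1164 and the highest had 1558. In PEA the lowest was 665, the median 836 and the highest 1000. All 6 PEA libraries lay below the CON median, and 5 of the 6 CON libraries lay above every PEA library. The exception was CON replicate 3, which had 804. The mean was 1163 ± 247 in CON and 838 ± 122 in PEA (SD, n = 6 each), a log2 fold change of -0.47 (SE 0.12, 95% confidence interval -0.73 to -0.21, edgeR adjusted p = 0.0238). Mymx remained called in 8 of the 12 fits that left out 1 library. It was not called without CON replicate 5 (adjusted p = 0.0512), PEA replicate 4 (0.0554), PEA replicate 5 (0.0621) or PEA replicate 6 (0.0519).

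Mymk (ENSMUSG00000009214, chromosome 2, bases 26951627 to 26962228, minus strand) did not pass the test. Its normalized count in CON ranged from 5679 through a median of 8203 to 9612, and in PEA from 6618 through 7474 to 7737. The PEA libraries were thus close to each other, all 6 below the CON median and all inside the CON range. The mean was 8059 ± 1468 in CON and 7363 ± 414 in PEA (SD, n = 6 each), with a log2 fold change of -0.13 (95% confidence interval -0.33 to 0.08, edgeR adjusted p = 0.422). As a percentage the interval runs from -20.5% to 5.35%.

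Since both fusogens are needed for fusion, their ratio was compared within each library, which needs no normalization. The number of estimated reads of Mymx per read of Mymk ranged from 0.130 to 0.162 in CON, with a median of 0.144, and from 0.0906 to 0.131 in PEA, with a median of 0.115. The groups met only at their edges, where CON replicate 2 lay just below PEA replicate 3. The mean ratio was 0.144 ± 0.0109 in CON and 0.114 ± 0.0140 in PEA (SD, n = 6 each). On the log2 scale the difference was -0.35 (two-sided exact permutation test, p = 0.00433, adjusted over 3 ratios p = 0.00649). Mymx transcript therefore fell relative to Mymk transcript, a difference that was tested directly.

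**Figure D2:**
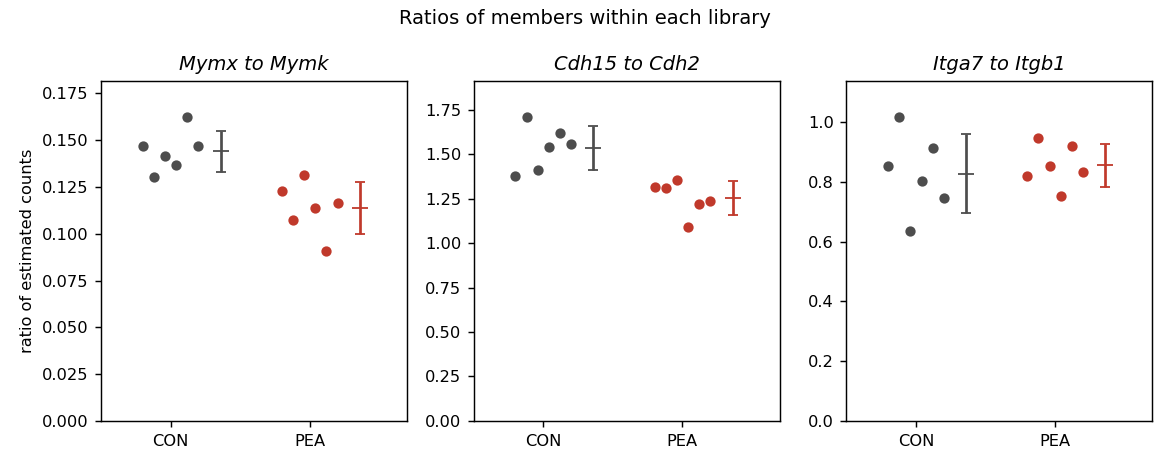
Ratio of estimated counts of 2 members within each library (vertical axes, from 0), for Mymx to Mymk, Cdh15 to Cdh2 and Itga7 to Itgb1, with CON in grey and PEA in red. Points are libraries and bars are mean ± SD, and the Cdh15 to Cdh2 ratios of the groups do not overlap while those of Itga7 to Itgb1 do.

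Cdh15 (ENSMUSG00000031962, chromosome 8, bases 123574705 to 123596048, plus strand, GRCm39) encodes M-cadherin, the cadherin of muscle precursor cells. Its promoter is shown because it is the only called member with an entry in the promoter table used. The sequence is the 250 bases before the start of the gene (RefSeq, GRCm38.p6, chr8:122848124-122848373, plus strand), and capitals mark each E-box, CANNTG, the motif that MyoD family factors bind.
Cdh15 promoter: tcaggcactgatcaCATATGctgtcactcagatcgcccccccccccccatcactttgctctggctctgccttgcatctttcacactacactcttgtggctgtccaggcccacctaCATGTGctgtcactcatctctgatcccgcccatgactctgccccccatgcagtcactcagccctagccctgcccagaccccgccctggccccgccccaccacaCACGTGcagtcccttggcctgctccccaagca
The motif reads the same on both strands. Its first base lay 236, 135 and 32 bases before the start. Of 32851 promoters of this length, 66.2% held at least 1 E-box and 12.2% held 3 or more. The E-box CAGCTG, in 13.0% of promoters, and the MEF2 motif CTANNNNTAG, in 3.20%, were not found in this window on either strand. Promoters of Itgb1, with no E-box, and Dock1, with 1, were also in the table.

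Cdh15 fell in PEA, although the call depended on single libraries. In CON its normalized count ranged from 4561 through a median of 5883 to 6483. In PEA it ranged from 4106 through 4929 to 5169. As with Mymx, 5 of the 6 CON libraries were above every PEA library, and only CON replicate 3 was not. The mean was 5733 ± 679 in CON and 4814 ± 409 in PEA (SD, n = 6 each), a log2 fold change of -0.25 (SE 0.08, 95% confidence interval -0.41 to -0.09, edgeR adjusted p = 0.0444). Only 3 of the 12 fits that left out 1 library called it, namely those without CON replicate 3 (adjusted p = 0.00591), PEA replicate 1 (0.0438) or PEA replicate 3 (0.0461). In the other 9 fits the adjusted p rose as far as 0.0972, without CON replicate 5. With the replicate block, the replicate number as a term in the edgeR fit, it was 0.0536.

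Cdh2 encodes N-cadherin, which is shared with neural and mesenchymal cells. Its mean normalized count was 3733 ± 345 in CON and 3837 ± 81.8 in PEA (SD, n = 6 each), a log2 fold change of 0.04 (95% confidence interval -0.07 to 0.16, edgeR adjusted p = 0.669). Counted against Cdh2 in the same library, Cdh15 separated the groups. Each CON library had between 1.38 and 1.71 reads of Cdh15 per read of Cdh2, with a median of 1.55, and each PEA library had between 1.09 and 1.35, with a median of 1.27. No PEA library reached the lowest CON library. The mean ratio was 1.54 ± 0.125 in CON and 1.25 ± 0.0952 in PEA (SD, n = 6 each). The log2 difference was -0.29 (two-sided exact permutation test, p = 0.00216, the smallest that 924 assignments of 12 libraries allow, adjusted over 3 ratios p = 0.00649).

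The other cell to cell adhesion genes did not pass the test. Ncam1, a homophilic adhesion molecule of muscle and nerve, was listed at 5113 ± 796 normalized counts in CON and 5716 ± 327 in PEA (SD, n = 6 each). All 6 PEA libraries were above the CON median of 5216, and 3 CON libraries were below every PEA library. Its log2 fold change was 0.16 (95% confidence interval -0.01 to 0.34, edgeR adjusted p = 0.222). Vcam1 encodes the ligand of an integrin that carries the beta1 subunit. Its count was 3463 ± 264 in CON and 3354 ± 176 in PEA, with an interval of the log2 fold change from -0.16 to 0.07 (edgeR adjusted p = 0.642). Jam3, which encodes a junctional adhesion molecule, was listed at 405 ± 33.9 in CON and 404 ± 45.9 in PEA, with an interval from -0.18 to 0.17 (edgeR adjusted p = 0.979). Jam3 shares 767 exon bases, 11.2% of its exons, with the opposite-strand gene Ncapd3, a condensin subunit gene that rose in PEA from 296 ± 26.5 to 376 ± 34.8 (log2 fold change 0.35, edgeR adjusted p = 0.0142). The library kit the methods name does not mark strand, so reads from the shared bases cannot be told apart and Jam3 is uncertain to that extent.

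Itga7 and Itgb1 encode the subunits of the laminin-binding integrin of muscle fibres. The normalized count of Itga7 averaged 12822 ± 2083 in CON and 13074 ± 857 in PEA (SD, n = 6 each), a log2 fold change of 0.03 (95% confidence interval -0.16 to 0.22, edgeR adjusted p = 0.860). Itgb1 varied least of the members, at 15499 ± 584 in CON against 15320 ± 322 in PEA (log2 change -0.01, 95% confidence interval -0.10 to 0.07, edgeR adjusted p = 0.844). As a percentage that interval runs from -6.53% to 4.83%. The ratio of Itga7 to Itgb1 was 0.827 ± 0.132 in CON and 0.854 ± 0.0707 in PEA (log2 difference 0.06, two-sided exact permutation test, p = 0.606), and without CON replicate 3 the difference turned to -0.015. Dock1, an exchange factor for Rac, averaged 578 ± 73.7 in CON against 592 ± 32.8 in PEA (log2 change 0.04, 95% confidence interval -0.13 to 0.20, edgeR adjusted p = 0.806).

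**Figure D3:**
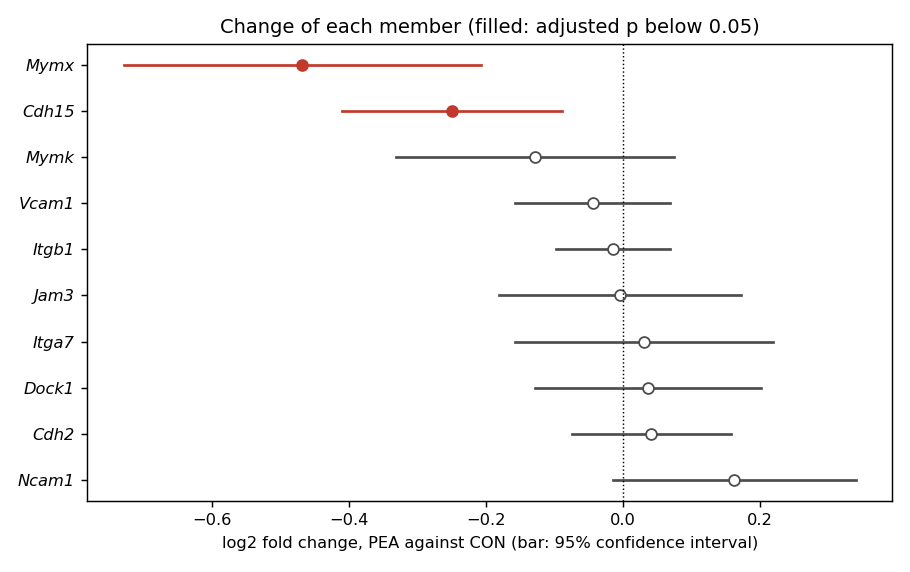
Log2 fold change of each member, PEA against CON (horizontal axis), with its 95% confidence interval as a bar, ordered from the lowest value at the top. The filled red points, Mymx at -0.47 and Cdh15 at -0.25, are the members with an adjusted p below 0.05, and every other interval includes 0.

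CON replicate 3 was the lowest CON library for 6 of the 10 members, Mymk, Mymx, Cdh15, Cdh2, Ncam1 and Itga7. Without it, Mymx changed by -0.55 on the log2 scale (edgeR adjusted p = 0.00331) and Cdh15 by -0.31 (edgeR adjusted p = 0.00591). Among all genes tested without that library, 3.75% were called lower. Mymk had a log2 fold change of -0.21 without it (edgeR adjusted p = 0.0568), of -0.077 without CON replicate 2 and of -0.072 without CON replicate 5. The values of Ncam1 and Cdh2 moved toward 0 without CON replicate 3, to 0.10 (edgeR adjusted p = 0.398) and 0.0034 (edgeR adjusted p = 0.980). The 6 CON libraries spread more widely than the 6 PEA libraries, by the SD of log2 CPM, counts scaled to the library total, for 9 of the 10 members, Jam3 being the exception. The same held for 65.4% of all genes tested. Without CON replicate 3 it held for 8 of the 10 members and 60.1% of all genes.

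Several members varied together from library to library. After subtracting the mean of each group from the log2 CPM, the Pearson correlation over the 12 libraries was 0.95 between Mymk and Itga7, 0.91 between Mymk and Cdh15, 0.83 between Mymk and Mymx, and 0.80 between Mymx and Cdh15. Vcam1 varied in the opposite direction, with -0.85 against Mymk and -0.80 against Cdh15. Among all genes tested, those most like Mymk by this measure were Slc2a6 (0.98), Bin1 (0.98) and Cdc42bpg (0.98). Those most like Mymx were Srgap3 (0.94), Hoxb3 (0.92) and Chrna1 (0.91), of which Chrna1 encodes the alpha subunit of the muscle acetylcholine receptor. Those most like Cdh15 were Patj (0.96), Mylk4 (0.95) and Jph2 (0.94). None of these 9 genes was called between PEA and CON. The correlations share the same libraries, including CON replicate 3, and are given as descriptions without a test. Hoxb3 had a low level, 21.3 ± 15.6 normalized counts in CON (SD, n = 6).

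Levels were compared between genes as CPM per kilobase of exon. Mymk had the highest level, 268 ± 48.7 in CON (SD, n = 6), above 98.6% of all genes tested. Itgb1 followed at 135 ± 5.07, Itga7 at 80.7 ± 13.1, Cdh15 at 57.7 ± 6.79 and Mymx at 34.8 ± 7.38. Ncam1 had 30.3 ± 4.71, Cdh2 22.5 ± 2.07 and Vcam1 20.1 ± 1.54. Dock1, at 3.14 ± 0.401, and Jam3, at 3.09 ± 0.258, had the lowest levels, and Jam3 was above 38.2% of all genes. The ranges over CON libraries overlapped between neighbours from Itga7 down to Vcam1, but within a library the order held in all 6 CON libraries from Mymk down to Cdh2. Cdh2 was above Vcam1 in 5 of the 6, and Dock1 above Jam3 in 3 of the 6, so the order of Dock1 and Jam3 is not resolved. In PEA Mymx had 25.1 ± 3.61 and Ncam1 33.9 ± 2.02, with no overlap between the genes.

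**Figure D4:**
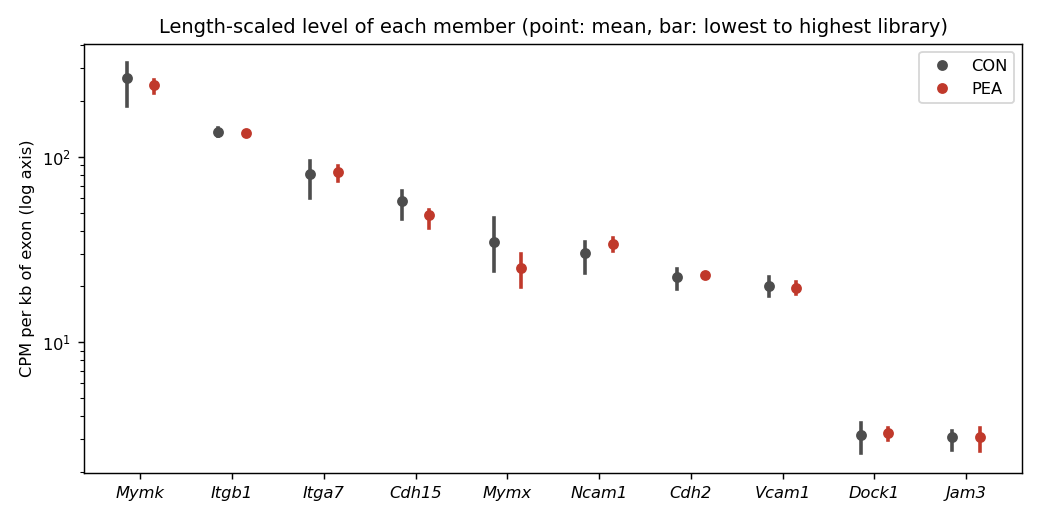
Level of each member in CPM per kilobase of exon (vertical log axis), CON in grey and PEA in red, ordered by the CON mean. Points are means and bars run from the lowest to the highest of 6 libraries, from Mymk at 268 to Jam3 at 3.09 in CON, and the Mymx bar in PEA lies below that of Ncam1.

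Other genes of fusion and adhesion were read from 5 lists that hold none of the 10 members. Of the 123 genes listed, 101 were tested, of which 6 rose and 11 fell. These are 5.94% and 10.9% of the genes tested, beside 6.31% called higher and 4.74% called lower among all genes. The genes that rose include Icam1, which passed the filter on low counts only through its PEA libraries. The counts depended on single libraries. The count of lower genes went to 4 without CON replicate 6, PEA replicate 2 or PEA replicate 6, to 5 without PEA replicate 5, and to 6 without CON replicate 5 or PEA replicate 4. The count of higher genes went to 3 without PEA replicate 2, 4 or 5, and to 12 without CON replicate 2. Over all genes, the count of lower genes went from 623 to between 286 (without PEA replicate 6) and 971 (without CON replicate 2). The counts of single lists below are to be read against the same shares. Their median log2 fold change was -0.02. In the list of fusion signalling and actin genes, 41 of 44 were tested, 1 rose, 6 fell and the median was -0.04. Adam12, a metalloprotease of fusing myoblasts, rose from 130 ± 35.0 normalized counts in CON to 197 ± 26.8 in PEA (log2 fold change 0.58, edgeR adjusted p = 0.0294). The small GTPase gene Rhoa fell from 9346 ± 665 to 7954 ± 469 (log2 fold change -0.23, edgeR adjusted p = 0.0128). Ehd2, an ATPase of caveolae, changed by -0.25 (edgeR adjusted p = 0.0130). The tetraspanin gene Cd9 fell from 5409 ± 742 to 4374 ± 264 (log2 fold change -0.30, edgeR adjusted p = 0.0169). Rhoa, Ehd2 and Cd9 were called in all 12 fits that left out 1 library, and Adam12 in 6 of them.

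Among integrins and their adaptors, 25 of 29 were tested, 1 rose, 4 fell and the median was -0.04. Itga3, a laminin-binding alpha subunit, rose from 1681 ± 65.6 to 2070 ± 96.8 normalized counts (SD, n = 6 each), with all 6 PEA libraries above the highest CON library (log2 fold change 0.30, edgeR adjusted p = 0.000824). Of all genes tested, 2.53% were higher in PEA without overlap. Fermt2, which encodes the integrin activator kindlin-2, changed by -0.21 (edgeR adjusted p = 0.0237), and Itgb1bp1, a cytoplasmic partner of the beta1 tail, by -0.20 (edgeR adjusted p = 0.0332). Itgb2, the beta subunit of leukocyte integrins, changed by -0.59 at a level of 136 ± 14.8 in CON and 90.6 ± 24.4 in PEA (edgeR adjusted p = 0.0332). Leaving out 1 library kept the call of Itga3 in 12 of 12 fits, of Itgb2 in 7, of Fermt2 in 6 and of Itgb1bp1 in 5. The fourth that fell was Ilk, named after its value was seen, at -0.17.

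None of the 7 cadherins and catenins tested of 12 listed was called, with a median of -0.05. Of 22 immunoglobulin type adhesion molecules, 13 were tested, 2 rose and 1 fell, with a median of 0.01. Icam1, counted among those that rose, passed the filter on low counts only through its PEA libraries, where it was high, so its values are a description: 0 to 18.9 normalized counts in CON and 16.0 to 47.4 in PEA. L1cam changed by 0.64 (edgeR adjusted p = 0.0426) and Cadm4 by -0.19 (edgeR adjusted p = 0.0469). With 1 library left out L1cam was called in 1 of 12 fits and Cadm4 in 2. Cadm4 was also not called under the replicate block (adjusted p = 0.0905) or without the filter on low counts (0.0625). Of 16 matrix ligands, 15 were tested, 2 rose and the median was 0.07. Tnc, encoding tenascin-C, rose from 1058 ± 338 to 1754 ± 186 (log2 fold change 0.73, edgeR adjusted p = 0.00659). Agrn, encoding agrin, the organiser of the neuromuscular junction, rose from 964 ± 387 to 1631 ± 258 (log2 fold change 0.76, edgeR adjusted p = 0.0188). Both were called in all 12 fits that left out 1 library.

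**Figure D5:**
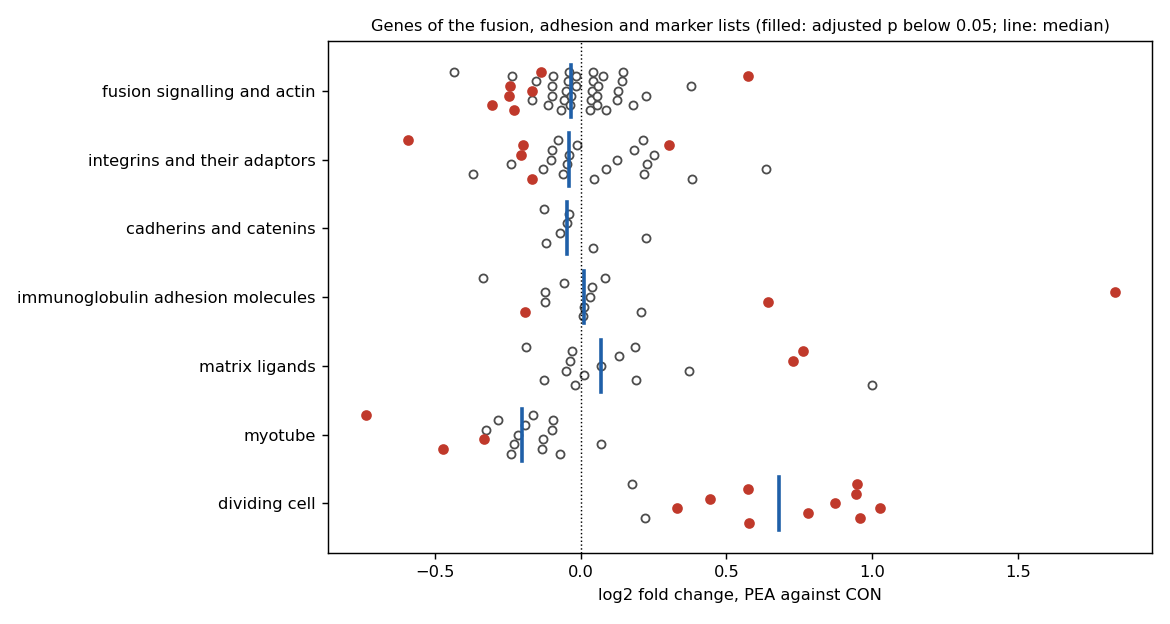
Log2 fold change, PEA against CON (horizontal axis), of every gene tested in the 5 fusion and adhesion lists and in the myotube and dividing cell marker lists (rows). Filled red points have an adjusted p below 0.05 and the blue line is the median of the list, which is -0.20 for myotube markers and 0.68 for dividing cell markers.

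Markers of muscle and of other cell types were read in the same libraries, all of them from a myoblast line. Of 16 myotube markers, all were tested, 15 had a log2 fold change below 0 and the median was -0.20, with 3 called. Tnni2 and Tnnt3, troponin genes of fast fibres, changed by -0.47 (edgeR adjusted p = 0.000529) and -0.33 (edgeR adjusted p = 0.0184), and the third was Myh8, a perinatal myosin gene named after its value was seen. The summed level of the 16 was 5830 to 9121 CPM in CON and 5958 to 7085 in PEA, and CON replicate 3 was the lowest of all 12 libraries. Of 12 dividing cell markers, 10 rose, with a median of 0.68 and Top2a and Ccna2 at 0.95 and 0.94 (edgeR adjusted p = 0.000937 and 0.00115). Their summed level was 438 to 609 CPM in CON and 647 to 785 in PEA, without overlap.

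Of 10 markers of myoblasts and reserve cells, the undifferentiated cells of such cultures, 9 were tested, 6 had a log2 fold change below 0 and the median was -0.08. Only Cd34 was called, and it rose (log2 fold change 0.24, edgeR adjusted p = 0.0135), while Spry1 was at -0.21 (edgeR adjusted p = 0.0508). Their sum was 671 to 722 CPM in CON and 664 to 714 in PEA. Of 10 fibroblast markers 7 were tested, 5 of them above 0 and 2 below, with a median of 0.23. The value farthest from 0 was that of Lum, -0.77 (edgeR adjusted p = 0.0851), and Col3a1 was at -0.12. Both Dcn (0.48, edgeR adjusted p = 0.0439) and Col1a2 (0.28, edgeR adjusted p = 0.0456) rose. Each was above 0 in all 12 fits that left out 1 library but was called in only 3 of them. DESeq2 did not call Dcn (adjusted p = 0.0512). Spry1, Lum and Col3a1 are named after their values were seen. The sum was 3641 to 4792 CPM in CON and 3800 to 4410 in PEA, and Thy1, a defining marker, had at most 8 reads in any library. None of the endothelial or macrophage markers tested, 2 of 6 in each list, was called. Their sums were 1.97 to 4.30 and 31.2 to 42.5 CPM in CON, and 2.81 to 4.00 and 35.6 to 46.0 in PEA. Ptprc, which defines leukocytes, had at most 6 reads.

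Mymx, Cdh15 and Mymk were also set against the mean log2 CPM of the 16 myotube markers in the same library, a comparison chosen after the values had been seen. That mean was 6.84 ± 0.43 in CON and 6.67 ± 0.19 in PEA (SD, n = 6 each), and the groups overlapped. Relative to that mean, Mymx was at -0.94 ± 0.20 in CON and -1.23 ± 0.23 in PEA (SD, n = 6 each), a difference of -0.28 (two-sided exact permutation test, p = 0.0411, adjusted over 3 genes p = 0.123). The exact permutation test of its log2 CPM as such gave -0.45 (p = 0.0152). Cdh15 was at 1.37 ± 0.31 and 1.30 ± 0.11, a difference of -0.07 (two-sided exact permutation test, p = 0.606), while its log2 CPM as such differed by -0.25 (p = 0.0260). The SD of Cdh15 in CON was 0.31 relative to the marker mean and 0.18 without it. Mymk was at 1.85 ± 0.21 and 1.92 ± 0.14, a difference of 0.06 (two-sided exact permutation test, p = 0.535). On this scale no difference passed the adjusted threshold. The part of the myotube share of the RNA in the decrease of Mymx and Cdh15 was not tested.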

How the data were processed

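RNA-seq was analysed from 12 libraries of C2C12 myotubes, grouped by their labels as CON or PEA. The labels list 13 entries, because PEA replicate 2 has 2 sequencing runs that share 1 set of values, counted as 1 library. The authors aligned reads to mm39 with STAR and quantified them to Ensembl genes in Partek, by their processing notes, and deposited estimated counts per gene. They also deposited a signal, the estimated counts divided by 1 factor per library (median-ratio normalization of DESeq2), printed here as normalized counts. Libraries held 12354845 to 50397444 estimated counts, and the errors given hold the counting error and the variation among libraries, no more. Of 21770 protein-coding genes in the annotation (GENCODE for GRCm39), 2240 have identifiers above the last of the 16382 genes at which the tables end, and were not used here, so all shares and adjustments cover that range of identifiers only.

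Estimated counts were rounded and tested with edgeR 4.0.16 in R 4.3.3 (quasi-likelihood F test, TMM normalization, filterByExpr). On simulated data made from all libraries, edgeR recovered 90 of 104 genes changed by a log2 of 1 and 72 of 96 changed by 0.5, with 5.26% false calls. The simulated libraries were independent, so this share of false calls does not cover dependence between duplicate wells. DESeq2 1.42.0, limma 3.58.1 (voom, and log2 of normalized counts with a pseudocount of 1), DESeq2 size factors, no filter, unrounded counts, the replicate number as a block and leaving out each library were alternatives. Log2 CPM used a prior count of 2. Ratios and values relative to myotube markers were compared by two-sided exact permutation tests. Markers were lists of known cell type genes. Intervals are 95%.

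The gene lists, like the members, were chosen with earlier results of these data known. Named genes are the 10 members, up to 3 called genes in each direction per fusion or adhesion list, up to 2 per marker list, both by smallest p, and the 3 genes most correlated with Mymk, Mymx and Cdh15. Promoters of 3 members were in the RefSeq table.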

Additional observations from a re-analysis of the deposited data

How the results depend on the processing

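The tests rest on 12 libraries of 1 cell line at 1 dose and time, and on depths that put every member at 269.6 estimated counts or more in each library, so low counts do not limit them. Mymx was called by all 7 alternatives that kept all libraries, with adjusted p between 0.00244 (DESeq2) and 0.0428 (the replicate block). Cdh15 was called by 6 of them, and under the replicate block the count of called members went from 2 to 1 and that of higher genes in the fusion and adhesion lists from 6 to 10. Correlations of deviations by replicate number lay between -0.08 and 0.06. They show no sign that the numbers pair the libraries but cannot settle the question. Whether a call lost under the block is a weaker effect was not tested. The exact p of the Mymx to Mymk and of the Cdh15 to Cdh2 ratio was 0.0312 under the replicate block, the smallest it allows. Leaving out 1 library moved the number of called genes over the whole table between 778 (without PEA replicate 6) and 2204 (without CON replicate 2), of higher ones between 492 and 1233 and of lower ones between 286 and 971. Called members ranged from 0 (without CON replicate 5 or PEA replicate 4, 5 or 6) to 2, higher list genes from 3 to 12 and lower list genes from 4 to 14. Members close to 0 changed sign: with 1 library left out the log2 fold change ranged from -0.047 to 0.042 for Jam3, -0.043 to 0.083 for Itga7, -0.026 to 0.00086 for Itgb1 and -0.021 to 0.083 for Dock1, and the log2 difference of the Itga7 to Itgb1 ratio from -0.015 (without CON replicate 3) to 0.12. Mymk changed sign relative to the myotube marker mean, at 0.064. The cause of these changes was not tested. No other member changed direction under any alternative.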
